A study of Homo sapiens with 8 samples.

Results

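The genes described here are 10 growth factor and receptor genes, the EGF-type ligands AREG, EREG, HBEGF, TGFA and BTC, the ErbB receptors EGFR, ERBB2 and ERBB3, and the PDGF chains PDGFA and PDGFB, out of 15767 genes in the count table of HuH7 cells. They were picked by symbol, with the contrast between AREG and PDGFB already known from these same libraries, so their differences between the groups are given as a description. HuH7 is a wildtype human hepatoma cell line. All cells went through oxygen-glucose deprivation for 6 h at 1% oxygen in glucose-free medium and were then returned to normal oxygen and glucose for 6 h, a cell model of hepatic ischemia-reperfusion (I/R). During these last 6 h they received either DMSO, the vehicle (I/R+DMSO, n = 4 libraries), or 20 μM ginsenoside Rk2 dissolved in DMSO (I/R+Rk2, n = 4 libraries). Cells without oxygen-glucose deprivation were not analysed here, and the comparison asked what Rk2 altered in the injured cells. The labels do not say whether the 4 libraries of a group came from separate cultures, so the p-values measure the spread between these libraries, which may be technical.

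EGF-type ligands are made as membrane-anchored precursors that metalloproteases of the ADAM family cut free. The released ligand binds EGFR, or ERBB4 for some ligands, and the bound receptor pairs with another member of the family, often ERBB2, which has no known ligand of its own, or ERBB3, whose kinase is weak. The receptors signal through adaptor proteins and RAS to the kinase ERK, and through PI3K to AKT. PDGF chains form dimers that bind the separate receptors PDGFRA and PDGFRB, found mainly on mesenchymal cells, which in liver include the stellate cells. In liver, EGFR and its ligands are known for their part in regeneration after injury.

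AREG, which encodes amphiregulin, lies on GRCh38 at chr4:74445134-74455009 on the plus strand (GENCODE release 29, 6 exon blocks). EREG, which encodes epiregulin, is the nearest gene with a row in the count table upstream of it, at a distance of 56.4 kb, and lies at chr4:74365143-74388751 on the same strand. The 250 bases before the start of both genes are shown (RefSeq, GRCh38.p14, plus strand, chr4:74444886-74445135 for AREG and chr4:74364895-74365144 for EREG), because AREG was separate between the groups and its neighbour EREG overlapped, and both carry a TATA box. Capitals mark matches to the cyclic AMP response element (CRE, TGACGTCA) and to the TATA box (TATAAA).
AREG: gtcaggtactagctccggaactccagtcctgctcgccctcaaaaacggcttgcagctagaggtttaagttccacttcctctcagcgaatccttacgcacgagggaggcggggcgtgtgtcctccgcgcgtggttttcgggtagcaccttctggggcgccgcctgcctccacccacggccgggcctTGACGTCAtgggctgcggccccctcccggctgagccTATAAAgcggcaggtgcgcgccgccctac
EREG: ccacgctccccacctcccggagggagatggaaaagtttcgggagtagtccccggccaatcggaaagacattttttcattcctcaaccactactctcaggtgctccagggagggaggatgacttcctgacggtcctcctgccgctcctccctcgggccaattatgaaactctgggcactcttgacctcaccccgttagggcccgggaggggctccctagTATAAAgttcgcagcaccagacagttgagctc

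The AREG stretch held the CRE letters once, beginning 65 bases before the RefSeq start, and TATAAA once, beginning 29 bases before it. The EREG stretch held TATAAA 32 bases before the start and no CRE letters. Both strands were searched, and 1.65% of 35116 RefSeq stretches of 250 bases before a start held TGACGTCA, against 10.7% that held TATAAA. A RefSeq entry was matched for 8 of the 10 genes, so PDGFB and ERBB3 were not searched. AREG was the only one of the 8 searched genes with the CRE letters. The AP-1 letters TGANTCA, found in 6.57% of all stretches, were in neither AREG nor EREG, but were in EGFR and ERBB2. The letters TGATGNAA of the C/EBP-ATF element, found in 3.14%, were in none of the 8 genes. For TGFA, EGFR and PDGFA several starts were searched, which gives these genes more room for a match. A match of letters is a description of the sequence and no measurement of binding.

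Each library held between 16374082 and 30310479 counts in all. I/R+DMSO libraries 1 to 4 held 19257935, 21342382, 18428485 and 21447045 counts, and I/R+Rk2 libraries 1 to 4 held 30310479, 18714966, 16374082 and 19496154. The deepest library was thus I/R+Rk2 replicate 1. I/R+DMSO replicate 1 stood apart from its group on the second principal component of log2 CPM, which held 15.9% of the variance. It was at 78.7, where the other 3 lay between -48.6 and -41.4. Results without this library are given for AREG, HBEGF, EGFR and PDGFA. The hepatocyte markers ALB, AFP, APOA1, APOB, TTR, SERPINA1, FGB and HNF4A were all above 0 in every library, with summed FPKM, the authors' level per gene length and library size, between 4121 and 4599 and the fetal liver gene AFP as the most abundant. Of 10 markers of immune, endothelial and mesenchymal cells, PTPRC, VWF, CDH5 and DCN were listed at 0 in every library, and ACTA2 in all but 2 libraries. The endothelial gene PECAM1, at 1.46 ± 0.388 and 1.59 ± 0.442 FPKM, and the collagen gene COL1A2, at 4.92 ± 0.763 and 4.48 ± 1.03 FPKM (mean ± SD, n = 4), were above 0 in every library. The summed FPKM of these 10 lay between 30.05 and 40.0, most of it CD68, a lysosomal protein gene, at 30.7 ± 2.65 FPKM in I/R+DMSO and 28.7 ± 3.51 in I/R+Rk2 (mean ± SD, n = 4). Of the 8 hepatocyte markers APOB was higher, with a log2 fold change (log2FC, I/R+Rk2 over I/R+DMSO) of 0.61 (edgeR adjusted p = 0.0124, adjusted over all tested genes), and FGB was lower at -0.27 (edgeR adjusted p = 0.0462). In bulk RNA, fewer cells with a transcript and less of it per cell cannot be told apart.

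Per length AREG was by far the most abundant ligand of the family and was higher with Rk2, while PDGFB was a low-level transcript and was lower. In CPM, counts scaled to library size, AREG was at 109, 94.1, 103 and 87.6 in I/R+DMSO libraries 1 to 4, and at 138, 142, 134 and 128 CPM in I/R+Rk2 libraries 1 to 4. Every I/R+Rk2 library lay above every I/R+DMSO library. The means were 98.4 ± 9.44 and 136 ± 5.88 CPM (mean ± SD, n = 4), giving a log2FC of 0.46 with a standard error of 0.0715, or 1.38-fold. Without I/R+DMSO replicate 1, which had the highest AREG value of its group, the log2FC was 0.51.

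PDGFB encodes the B chain of platelet-derived growth factor and lies at chr22:39223359-39244751 on the minus strand of GRCh38 (GENCODE release 29, 10 exon blocks). It was at 7.44, 7.73, 7.66 and 7.13 CPM in I/R+DMSO libraries 1 to 4 and at 4.69, 4.66, 4.72 and 4.25 CPM in I/R+Rk2 libraries 1 to 4. The groups did not overlap, and the gap between them was wider than the range within either. The means were 7.49 ± 0.268 and 4.58 ± 0.221 CPM (mean ± SD, n = 4), giving a log2FC of -0.71 with a standard error of 0.0772. These levels rested on 139 to 164 counts in each I/R+DMSO library and 78 to 143 in each I/R+Rk2 library, whereas AREG had at least 1868 counts in every library.

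The ratio of AREG to PDGFB counts within a library needs no scaling between libraries. It was 14.65, 12.2, 13.5 and 12.3 in I/R+DMSO libraries 1 to 4, and 29.5, 30.4, 28.5 and 30.1 in I/R+Rk2 libraries 1 to 4. The lowest I/R+Rk2 ratio was thus far above the highest I/R+DMSO ratio. The means were 13.1 ± 1.16 and 29.6 ± 0.854 (mean ± SD, n = 4), a 2.25-fold ratio of the means, and the mean log2 ratios differed by 1.18. On the log2 scale the SD between libraries was 0.125 in I/R+DMSO and 0.0420 in I/R+Rk2, while counting error alone gives a library's ratio an SD of 0.117 to 0.166. The SD of I/R+Rk2 was below that of counting error, but an SD of 4 values is itself uncertain, so nothing is read from this. In 8 repeats that each left out a library the difference stayed between 1.14 and 1.23. Taken from the fitted log2FC of both genes, it was 1.36 after a correction for gene length and 0.90 with limma on log2(FPKM + 1).

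**Figure D1:**
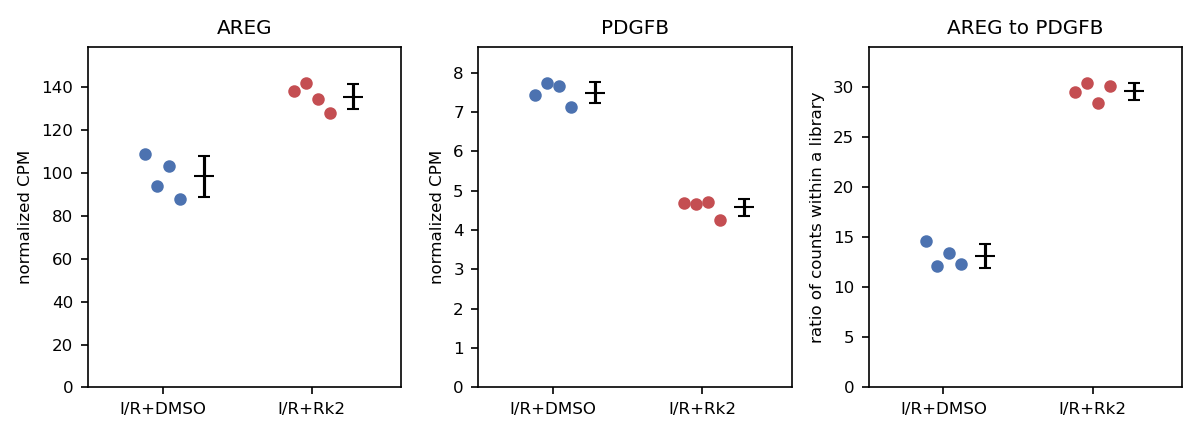
Normalized CPM of AREG (left) and PDGFB (middle) and the ratio of their counts within a library (right), with 1 point per library and the mean and SD of 4 libraries beside each group. AREG is higher and PDGFB lower in all 4 I/R+Rk2 libraries, and the ratio goes from 13.1 to 29.6.

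The other EGF-type ligands were at low levels and overlapped between the groups. HBEGF, which encodes heparin-binding EGF-like growth factor, was at 9.08, 6.41, 8.98 and 6.99 CPM with DMSO and at 7.64, 6.10, 6.17 and 7.59 CPM with Rk2, giving a log2FC of -0.19 with a standard error of 0.146. Leaving out I/R+DMSO replicate 1 gave -0.11, and leaving out replicate 3 of that group gave -0.12, while limma on log2(FPKM + 1) gave -0.05 and on log2(FPKM + 0.1) -0.06. EREG was at 1.17, 1.602, 1.54 and 1.27 CPM with DMSO and at 1.11, 1.59, 1.57 and 1.37 CPM with Rk2, giving a log2FC of 0.0049 with a standard error of 0.190. The EREG ranges of the groups nearly coincide, each library held only 22 to 34 EREG counts, and leaving out single libraries moved the log2FC between -0.07 and 0.11. BTC, which encodes betacellulin, was at 2.07, 2.17, 1.71 and 2.21 CPM with DMSO and at 2.79, 2.33, 2.30 and 2.02 CPM with Rk2, giving a log2FC of 0.21 with a standard error of 0.1499. Leaving out I/R+Rk2 replicate 1 gave 0.12, and leaving out I/R+DMSO replicate 3 gave 0.14, while limma on log2(FPKM + 0.1) gave 0.34. TGFA had 0 counts in every I/R+DMSO library and 4, 0, 0 and 2 counts in I/R+Rk2, too few to be tested. A count of 0 allows up to 3 counts, which is between 0.141 and 0.165 CPM in the I/R+DMSO libraries and covers counting error only.

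Of the receptors, ERBB2 was slightly lower with Rk2, and EGFR and ERBB3 overlapped between the groups. EGFR was at 155, 199, 194 and 199 CPM with DMSO and at 204, 198, 213 and 235 CPM with Rk2, giving a log2FC of 0.18 with a standard error of 0.0904. The lowest EGFR value was that of I/R+DMSO replicate 1, and without this library the log2FC was 0.10. ERBB2 was at 66.4, 69.95, 68.3 and 65.0 CPM with DMSO and at 61.6, 60.1, 60.2 and 59.8 CPM with Rk2, giving a log2FC of -0.16 with a standard error of 0.0406. In CPM the ERBB2 groups did not overlap, with means of 67.4 ± 2.18 and 60.4 ± 0.798 (mean ± SD, n = 4), but in FPKM they did, at 17.8 to 22.0 with DMSO and 16.6 to 19.1 with Rk2. ERBB3 was at 94.8, 90.2, 79.0 and 95.6 CPM with DMSO and at 86.2, 95.6, 109 and 98.8 CPM with Rk2, giving a log2FC of 0.11 with a standard error of 0.0854. Leaving out replicate 3 of either group gave 0.06. The ratio of EGFR to ERBB2 counts within a library lay from 2.34 to 3.07 with DMSO and from 3.29 to 3.93 with Rk2, with means of 2.78 ± 0.307 and 3.52 ± 0.297 (mean ± SD, n = 4). EGFR is the longer gene, and after a correction for gene length its log2FC was -0.08 and that of ERBB2 -0.22, so that the gap between them was smaller.

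PDGFA, the gene of the A chain, differed in the same direction as PDGFB but by less. It was at 9.19, 9.47, 10.6 and 9.01 CPM with DMSO and at 8.13, 6.10, 7.56 and 7.64 CPM with Rk2. The log2FC was -0.38 with a standard error of 0.106 (edgeR adjusted p = 0.0429). Without I/R+DMSO replicate 1 the log2FC was -0.39 (edgeR adjusted p = 0.0618). Leaving out any other single library also took the edgeR adjusted p above 0.05, between 0.0502 and 0.0967. As PDGFA was picked with the contrast of these libraries known, its p-values are a description. In CPM the groups did not overlap, with means of 9.56 ± 0.705 and 7.36 ± 0.877 (mean ± SD, n = 4), but in FPKM they did, at 3.52 to 4.77 with DMSO and 2.31 to 3.55 with Rk2. The ratio of PDGFA to PDGFB counts went from 1.28 ± 0.0717 to 1.61 ± 0.218 (mean ± SD, n = 4), with I/R+Rk2 libraries between 1.31 and 1.80 and I/R+DMSO libraries between 1.23 and 1.38.

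Of the 9 genes tested, AREG had an adjusted p-value below 0.05 and was higher, where 11.0% of all 12910 tested genes were higher at that threshold. PDGFB, PDGFA and ERBB2 passed it and were lower, where 7.24% of all tested genes were lower and 18.2% passed in either direction (edgeR's quasi-likelihood test, Benjamini-Hochberg). These 4 genes of the 9 were also those with separate groups in CPM, as were 28.3% of the genes tested. The genes were chosen on this contrast, so nothing is read from these counts. The median log2FC was 0.0049 over the 9 genes and -0.0021 over all tested genes. AREG and PDGFB passed in all of 17 alternatives, ERBB2 in 7 and PDGFA in 4. The alternatives reuse the libraries on which the genes were chosen, so these tallies describe the processing only. Longer genes tended to be higher in I/R+Rk2, with a Spearman correlation of 0.388 between length and log2FC across genes. Length was computed from the counts and FPKM of these same libraries and not taken from an annotation. After correction for length the log2FC was 0.56 for AREG, -0.80 for PDGFB, -0.22 for ERBB2 and -0.08 for EGFR, which changed sign.

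**Figure D2:**
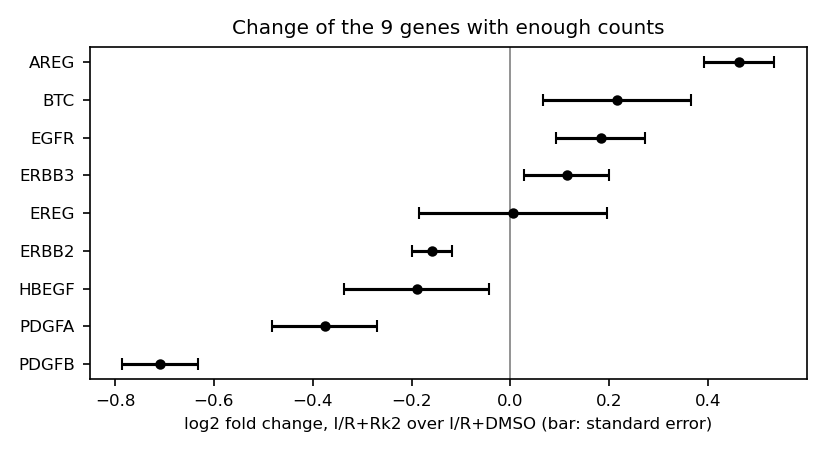
Log2FC of I/R+Rk2 over I/R+DMSO for the 9 genes with enough counts, with bars for the standard error derived from the edgeR test. AREG at 0.46 and PDGFB at -0.71 lie at the ends, and the bar of EREG spans 0.

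Per length, the level of AREG stood far above the others. In I/R+DMSO the FPKM was 66.9 ± 6.20 for AREG, 28.97 ± 3.32 for ERBB3, 19.5 ± 1.78 for ERBB2 and 16.9 ± 2.66 for EGFR (mean ± SD, n = 4). PDGFA followed at 3.92 ± 0.579 FPKM, HBEGF at 3.36 ± 0.474, PDGFB at 1.87 ± 0.245, BTC at 0.596 ± 0.0682 and EREG at 0.255 ± 0.0460 (mean ± SD, n = 4). In this order, ERBB2 and EGFR overlapped, as did PDGFA and HBEGF. In I/R+Rk2 AREG was at 94.8 ± 4.31 FPKM and PDGFB at 1.17 ± 0.138 (mean ± SD, n = 4), and BTC, at 0.805 ± 0.281, overlapped PDGFB there. AREG made up 88.8% ± 1.599 of the summed FPKM of 11 EGF-type ligands and neuregulins in I/R+DMSO and 90.7% ± 2.0 in I/R+Rk2 (mean ± SD, n = 4), a difference of about the spread between libraries. That sum was 75.2 ± 5.74 FPKM in I/R+DMSO and 105 ± 3.68 FPKM in I/R+Rk2. EGFR, ERBB2 and ERBB3 made up 25.8%, 29.9% and 44.3% of the summed FPKM of the 4 ErbB receptors in I/R+DMSO and 28.9%, 25.2% and 45.9% in I/R+Rk2, with ERBB4 below 0.1% in every library.

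**Figure D3:**
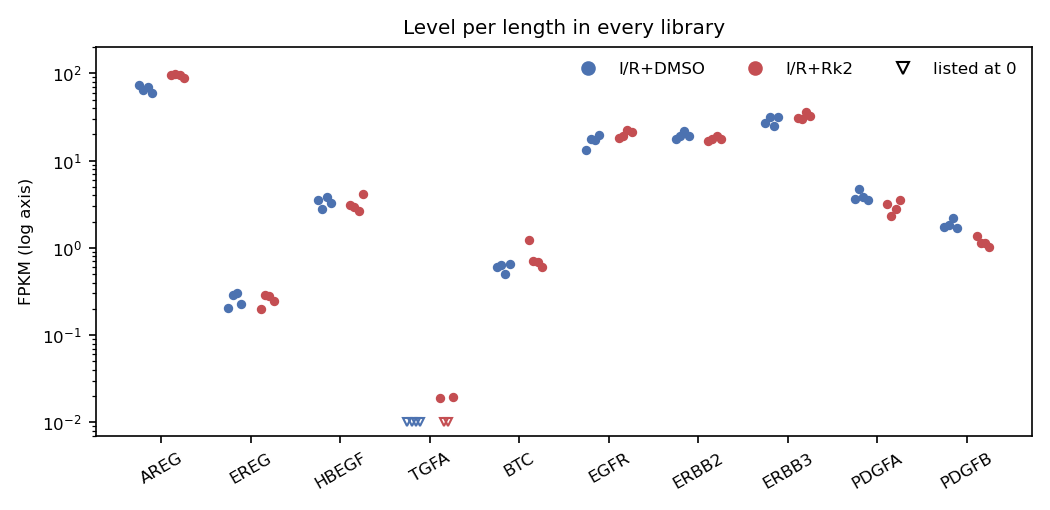
FPKM of the 10 genes on a log axis, with 1 point per library, I/R+DMSO in blue and I/R+Rk2 in red, and open triangles for libraries where a gene is listed at 0. AREG lies highest in both groups, and TGFA is at 0 in 6 of 8 libraries.

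Of 79 other genes of these pathways, 71 were tested, and below an adjusted p-value of 0.05 lay 11 higher genes (15.5%) and 6 lower ones (8.45%), against 11.0% and 7.24% of all tested genes. Their median log2FC was 0.06, and the groups were separate in 25 of the 71 (background 28.3%). The counts depended on single libraries, with 7 higher without I/R+DMSO replicate 3, 6 higher and 3 lower without I/R+Rk2 replicate 4, and 3 lower without I/R+Rk2 replicate 3. Without I/R+DMSO replicate 1 they were 11 higher and 7 lower. After a correction for gene length they were 7 higher and 8 lower, so the larger count was then that of the lower genes. ADAM9, TIMP3, DUSP5 and DUSP6 passed in all 17 alternatives. With limma on FPKM, at either pseudocount, these 4 and SOCS5 passed, and the other list genes with an edgeR adjusted p-value under 0.05, SOS1, SOS2, SHC1 and ETV5 among them, did not.

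None of the 4 tested genes among the other ligands and ERBB4 passed, with EGF itself, the most abundant, at 5.08 ± 0.797 and 5.92 ± 0.683 CPM (mean ± SD, n = 4; log2FC 0.22, edgeR adjusted p = 0.302). Of 8 tested genes that cut ligands free or govern that step, ADAM9 and ADAM10 were higher, TIMP3 was lower and 5 did not pass. ADAM9, a membrane metalloprotease and the most abundant of the list, rose from 268 ± 25.8 to 333 ± 3.61 CPM (mean ± SD, n = 4), for a log2FC of 0.31 (edgeR adjusted p = 0.0161). ADAM10, another of these proteases, had a log2FC of 0.21 (edgeR adjusted p = 0.0198), which was -0.0036 after the correction for length (edgeR adjusted p = 0.974). TIMP3, an inhibitor of ADAM proteases that is held in the extracellular matrix, fell from 194 ± 7.44 to 145 ± 2.81 CPM (mean ± SD, n = 4), for a log2FC of -0.42 (edgeR adjusted p = 6.4e-04). ADAM17, the protease best known for cutting AREG, was at 51.9 ± 6.73 and 55.7 ± 3.74 CPM (mean ± SD, n = 4; log2FC 0.10, edgeR adjusted p = 0.499), and it is named here after its value was seen. Of 7 tested genes among the remaining PDGF chains, PDGF receptors and the convertases that trim PDGF precursors, PDGFRA was lower and 6 did not pass. PDGFRA was at 8.48 ± 0.830 CPM with DMSO and 6.71 ± 0.350 with Rk2 (mean ± SD, n = 4), for a log2FC of -0.34 (edgeR adjusted p = 0.0376) that passed in 7 of 17 alternatives. FURIN, the most abundant convertase, was at 130 ± 7.47 and 123 ± 6.08 FPKM (mean ± SD, n = 4; log2FC -0.10, edgeR adjusted p = 0.204).

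Among 13 tested genes that restrain the receptors, SOCS5 and CBLB were higher and 11 did not pass. SOCS5, a suppressor of cytokine signaling that also acts on EGFR, had a log2FC of 0.24 (edgeR adjusted p = 0.0188). It passed in 12 of 17 alternatives and was at 0.11 after the correction for length (edgeR adjusted p = 0.179). CBLB, a ubiquitin ligase, had one of 0.25 (edgeR adjusted p = 0.0497), passed in 4 of 17 alternatives and was at 0.12 after the correction for length (edgeR adjusted p = 0.434). ERRFI1, an EGFR inhibitor and the most abundant of the list, was at 457 ± 19.0 and 435 ± 15.0 CPM (mean ± SD, n = 4; log2FC -0.07, edgeR adjusted p = 0.269), while its FPKM went from 149.96 to 151.9.

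Among 21 genes from the adaptors through RAS to ERK, 5 were higher, 1 was lower and 15 did not pass, with a median log2FC of 0.07. SOS1, an exchange factor that loads RAS with GTP, rose from 55.7 ± 6.69 to 81.2 ± 3.89 CPM (mean ± SD, n = 4), for a log2FC of 0.54 (edgeR adjusted p = 0.00490). Its relative SOS2 had a log2FC of 0.41 (edgeR adjusted p = 0.00740). The kinase BRAF had a log2FC of 0.39 (edgeR adjusted p = 0.0241) and passed in 11 of 17 alternatives, and the adaptor GAB1 had one of 0.31 (edgeR adjusted p = 0.0495) and passed in 3. After the correction for length the log2FC was 0.36 for SOS1, 0.26 for SOS2 and 0.25 for BRAF. SHC1, an adaptor that binds activated receptors, fell from 179 ± 6.37 to 149.9 ± 6.68 CPM (mean ± SD, n = 4), for a log2FC of -0.25 (edgeR adjusted p = 0.00827). MAP2K2, the most abundant of the list, was at 136 ± 13.9 and 133 ± 18.5 FPKM (mean ± SD, n = 4; log2FC -0.01, edgeR adjusted p = 0.909).

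Of 18 tested genes that ERK signaling is known to induce, DUSP5 and ETV5 were higher, DUSP6, CCND1 and IER3 were lower, and 13 did not pass, with a median log2FC of -0.0066. DUSP5, the ERK phosphatase of the nucleus, rose from 147 ± 7.31 to 185 ± 5.91 CPM (mean ± SD, n = 4), for a log2FC of 0.33 (edgeR adjusted p = 0.00353). DUSP6, the ERK phosphatase of the cytoplasm, fell from 209.6 ± 2.26 to 161 ± 7.29 CPM (mean ± SD, n = 4), for a log2FC of -0.38 (edgeR adjusted p = 0.00108). The pair thus went opposite ways. ETV5, a transcription factor of the ETS family, had a log2FC of 0.33 (edgeR adjusted p = 0.006655). CCND1, which encodes cyclin D1 and was the most abundant of the list, had one of -0.21 (edgeR adjusted p = 0.0187). It passed in 13 of 17 alternatives and was at -0.32 after the correction for length (edgeR adjusted p = 0.00169). The early response gene IER3 had a log2FC of -0.20 (edgeR adjusted p = 0.0478). It passed in 5 of 17 alternatives and was at -0.11 after the correction for length (edgeR adjusted p = 0.0857). EGR1, an early ERK target named here after its value was seen, was at 40.7 ± 2.63 and 43.1 ± 2.41 CPM (mean ± SD, n = 4; log2FC 0.08, edgeR adjusted p = 0.399).

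**Figure D4:**
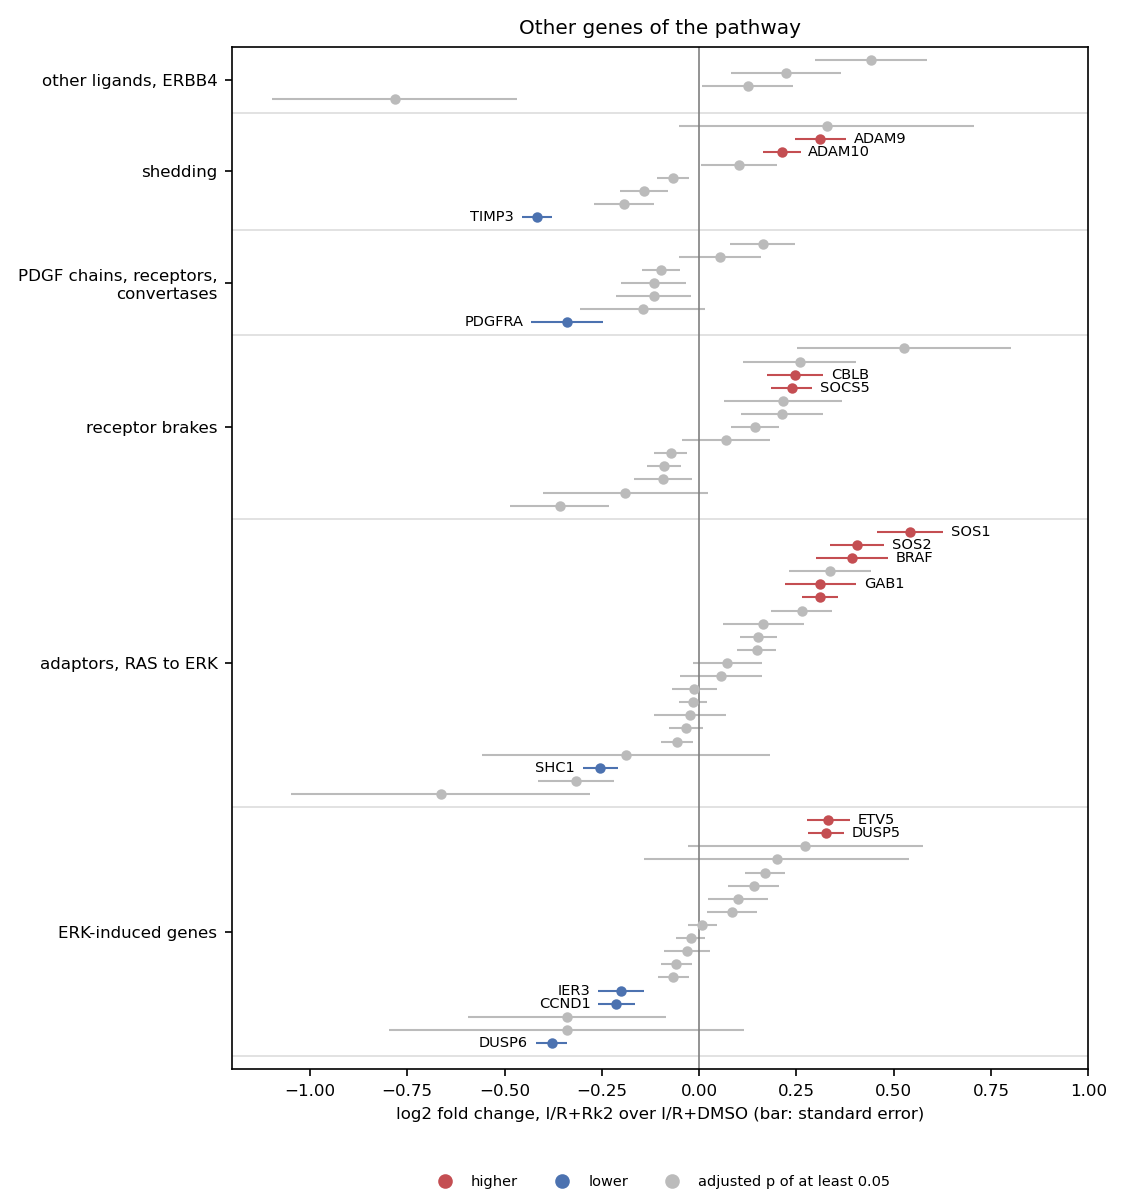
Log2FC of I/R+Rk2 over I/R+DMSO for 71 tested genes in 6 lists of the pathways, with bars for the standard error and names beside all but 1 of the genes with an adjusted p-value below 0.05. The 11 higher and 6 lower genes are spread over 5 of the lists, and every list holds genes on both sides of 0.

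The genes whose log2 CPM followed AREG most closely over the 8 libraries, among 10460 tested genes with a mean of at least 5 CPM, were PPP1R15A (r = 0.988), UAP1 (r = 0.986), GDF15 (r = 0.985), ATF4 (r = 0.983) and HSPA5 (r = 0.982). PPP1R15A encodes the phosphatase subunit that ends the integrated stress response, ATF4 the transcription factor of that response, GDF15 a secreted stress cytokine, HSPA5 the chaperone BiP of the endoplasmic reticulum and UAP1 an enzyme of amino sugar synthesis. PPP1R15A went from 150.1 ± 12.3 to 198 ± 11.9 CPM and ATF4 from 515 ± 35.9 to 693 ± 13.4 CPM (mean ± SD, n = 4). The deviations from the group means, which leave out the difference between the groups, correlated with those of AREG at 0.927 for PPP1R15A and 0.859 for HSPA5. Closest to PDGFB were BIRC5 (r = 0.997), VSIR (r = 0.995), MIDN (r = 0.994), PREP (r = 0.994) and U2AF2 (r = 0.993). BIRC5 encodes survivin, which acts in cell division and inhibits apoptosis, VSIR an immune checkpoint protein, MIDN the nuclear protein midnolin, PREP a prolyl peptidase and U2AF2 a splicing factor. BIRC5 went from 49.6 ± 1.77 to 25.8 ± 1.21 CPM and VSIR from 31.1 ± 1.82 to 19.4 ± 0.457 CPM (mean ± SD, n = 4). Deviations within the groups correlated with those of PDGFB at 0.926 for MIDN and 0.715 for U2AF2, the highest and lowest of the genes closest to it. AREG and PDGFB themselves had r = -0.889 over the 8 libraries and 0.507 for the deviations within the groups. All these values share their libraries and scaling, and the choice by likeness to genes that differ between the groups favours genes that differ too. The r over the 8 libraries also includes the deviations within the groups, so the choice favours high correlations of these as well.

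**Figure D5:**
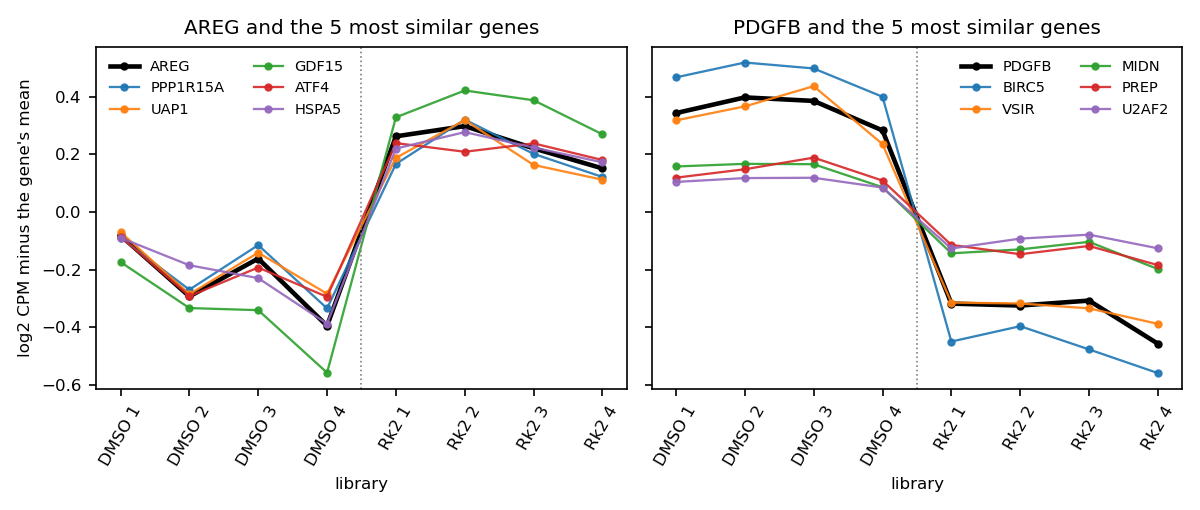
Log2 CPM minus the gene's mean in each of the 8 libraries for AREG (left) and PDGFB (right), each with its 5 most similar genes, where lines only join the values of a gene. I/R+DMSO replicate 4 is the lowest library for AREG, and U2AF2, PREP and MIDN span less of the scale than PDGFB.

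Of the neighbours of AREG and PDGFB on the chromosome, only PARM1 passed the threshold. Around AREG, EPGN had at most 2 counts in a library, EREG and BTC overlapped between the groups as given above, and PARM1, 478 kb away, rose from 11.3 ± 1.20 to 15.8 ± 0.841 CPM (mean ± SD, n = 4), for a log2FC of 0.49 (edgeR adjusted p = 0.00975). Beside PDGFB, the ribosomal protein gene RPL3 at 67.9 kb had a log2FC of -0.16 (edgeR adjusted p = 0.359) and the Polycomb gene CBX7 at 70.7 kb one of -0.56 (edgeR adjusted p = 0.211). SYNGR1 had a log2FC of -0.03 (edgeR adjusted p = 0.971), and APOBEC3G had at most 4 counts in a library. In GENCODE release 29 the exons of AREG and PDGFB overlap no other gene. Those of ERBB3 overlap AC034102.2 on the same strand, and those of EGFR and ERBB2 overlap EGFR-AS1 and MIEN1 and PGAP3 on the other strand. Whether the counting used strand is not given in the sources used here, so reads in the shared parts of these receptor genes cannot be assigned with certainty.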

How the data were processed

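Counts per gene, as deposited, were made by the authors from RNA-seq of 8 libraries. The labels name FastQC 0.11.5, HISAT2 2.2.1, StringTie 1.3.3 and hg38, and the counting program is not given in the sources used here. The authors also deposited FPKM, fragments normalized to gene length and library size, for 19799 genes, used here to compare levels between genes. Of the 15767 symbols in the count table, 22 had turned into dates and were left out, with 0.111% of the counts.

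Libraries were scaled by TMM, and the 12910 genes reaching 10 counts in 4 or more libraries were tested. The test was the robust quasi-likelihood test of edgeR 4.0.16 in R 4.3.3, on the group alone. Benjamini-Hochberg adjustment ran over all tested genes, with a threshold of 0.05. Log2 CPM, used for the principal components, the correlations and the length correction, had a prior count of 1. The script was tested on simulated data. CPM in the text are counts scaled to the TMM-adjusted library size. The standard error of a log2FC was derived from the test, as its absolute value over the square root of the F statistic. The common biological coefficient of variation was 17.1%.

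The members and lists were chosen with earlier results of these data known. Named were all members, per list up to 6 genes past the threshold with the smallest p-values and the most abundant gene by FPKM, the 5 genes most like AREG and PDGFB, and the 2 nearest genes on each side of both, and others are marked. The values of 1 gene past the threshold are not reported here, though the counts include it. The alternatives were DESeq2 1.42.0, upper-quartile scaling, library size only, no filter, at least 50 counts in every library, limma 3.58.1 on log2(FPKM + 1) and log2(FPKM + 0.1) for genes with a mean of at least 0.5 FPKM, a replicate block, a loess correction for gene length, and leaving out each library. The gene length in that correction was the median over libraries of the counts divided by FPKM and total counts. It is thus derived from the deposited values and is no annotated length. On the log2(FPKM + pseudocount) scale the fold change of low genes is understated.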

Additional observations from a re-analysis of the deposited data

Results flagged for a closer look

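In groups of 4, a value was singled out where its gap to the nearest other value took up more of the range than Dixon's critical value allows, which chance alone gives for about 1 in 20 groups, and 78 groups were examined. EGFR was at 155 CPM in I/R+DMSO replicate 1, where the other 3 libraries of the group were between 194 and 199 CPM. The same library lay at 78.7 on the second principal component, where the others of its group lay between -48.6 and -41.4. PDGFB was at 4.25 CPM in I/R+Rk2 replicate 4, with the other 3 between 4.66 and 4.72 CPM, a gap of few counts in a library that held 84. MIDN, among the genes most like PDGFB, was at 364 CPM in I/R+DMSO replicate 4, with the other 3 between 383 and 385 CPM.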

How the results depend on the processing

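AREG stayed higher and PDGFB lower in I/R+Rk2 under all 17 alternatives, with log2 fold changes of 0.41 to 0.56 for AREG. For PDGFB the log2 fold change was -0.40 with limma on log2(FPKM + 1), -0.63 with limma on log2(FPKM + 0.1) and -0.80 after the length correction, where the pseudocount is close to the level of the gene in the first of these. Across the table, limma called 812 and 798 genes higher and 311 and 308 lower, and leaving out single libraries gave 863 to 1418 higher and 430 to 885 lower, against 1417 and 935 with all libraries. Of the calls, 60.2% were higher, against 48.8% with upper-quartile scaling, 70.6% with library size only, 72.3% and 72.2% with limma and 45.3% after the length correction, while the median over all genes stayed within 0.03 of 0. Among the pathway genes, limma called 3 higher and 2 lower with both pseudocounts, the length correction 7 higher and 8 lower, and leaving out single libraries gave 6 to 12 higher and 3 to 7 lower. The cause of these shifts was not tested. With a replicate block, AREG was at 0.47 and PDGFB at -0.71, and 9 pathway genes were higher and 6 lower, with 1143 and 672 genes across the table. ERBB2, PDGFA, PDGFRA, SOCS5, CBLB and GAB1 no longer passed with the block. Libraries that share a replicate number had correlations between -0.0095 and 0.085 of their deviations from the group means. Not every library correlated best with its own number. The labels give only the number, and these correlations cannot show whether the libraries were paired. EREG, with 22 to 34 counts per library, and BTC and HBEGF had standard errors of 0.146 to 0.190, so differences of that size in these ligands were within the error.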

Other observations

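GRB2, the adaptor that carries SOS1 and SOS2 to the receptors, was singled out after its values were seen. It was at 153.5 CPM in I/R+DMSO replicate 1, between 49.3 and 52.2 CPM in the other 3 I/R+DMSO libraries and between 45.1 and 53.0 CPM in I/R+Rk2. Its log2FC of -0.66, with a standard error of 0.385 (edgeR adjusted p = 0.263), rested on that library.

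CD14, a monocyte marker that hepatocytes also express, averaged 0.803 ± 0.255 CPM with DMSO and 0.341 ± 0.124 CPM with Rk2 (mean ± SD, n = 4), for a log2FC of -1.25 (edgeR adjusted p = 0.0430), on 5 to 24 counts per library.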
